A study of Danio rerio with 4 samples.

Results

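The cells described here are 2206 epidermal cells rich in the keratin transcript krtt1c19e, taken from 19611 retained cells of the trunks of zebrafish larvae aged 3 days post-fertilisation (dpf). They were chosen by their own counts of unique molecular identifiers (UMIs, one per captured transcript molecule). A retained cell was epidermal when krt4, cyt1, cyt1l and krtt1c19e together made up at least 5% of its UMIs, and it was a member when it held more krtt1c19e than krt17 UMIs. The other 510 epidermal cells, with at least as many krt17 as krtt1c19e UMIs, are called krt17-rich below, and the remaining 16895 retained cells are called non-epidermal. The levels of these 5 genes therefore chose the cells and are given only as a description.

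Single-cell RNA sequencing was performed on 2 WT libraries and 2 libraries of flt1ka604 mutants, all from trunks whose heads had been removed and which were dissociated with trypsin and collagenase. The wild-type receptor Flt1 binds Vegfa. The flt1ka604 allele carries a small deletion in the third exon with a premature stop codon, and per the paper its truncated product lacks a working Vegf-binding part. No text ties the libraries of a genotype to separate clutches, so p-values measure only the spread between these libraries. Nor is it said whether the WT and flt1 mutant larvae were siblings. Whether a difference between the genotypes came from flt1 loss or from their parents and background was therefore not tested. WT replicate 1 gave 305 members and WT replicate 2 gave 671, while 566 came from flt1 mutant replicate 1 and 664 from flt1 mutant replicate 2. No member barcode was shared between libraries. The flt1 transcript could not check the genotype here, since a 3' tag does not read the deleted part and the members held 1, 3, 1 and 2 flt1 UMIs in the 4 libraries, in the order above.

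The larval zebrafish epidermis has a basal layer, which sits on the basement membrane, and a superficial layer, the periderm, which faces the water. Basal keratinocytes depend on the transcription factor Tp63, anchor to the basement membrane through hemidesmosomes that contain integrin alpha 6 beta 4 and collagen XVII, and lay down collagen and the actinodin proteins of the fin fold. Periderm cells are sealed by tight junctions and carry cornified envelope proteins such as envoplakin and periplakin. Keratins form the intermediate filaments of both layers, and krtt1c19e is widely used as a basal keratin.

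The name basal epidermis, under which the rule was set, fitted only a part of the members. Of the 2206 cells, 502 held more UMIs of cldni, a claudin of the basal layer, than of cldne, a claudin of the periderm, and 1340 held more cldne. Another 364 held equal numbers, among them 357 with no UMI of either, and in only 12 members were both claudins present within 3-fold of each other. This split was made after the values had been seen, so its sides are described by their levels, and no test was made between them. The genotype fit repeated within a side is given only as an alternative added after seeing the data. The members with more cldni than cldne are called cldni-rich and those with more cldne than cldni are called cldne-rich.

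**Figure D1:**
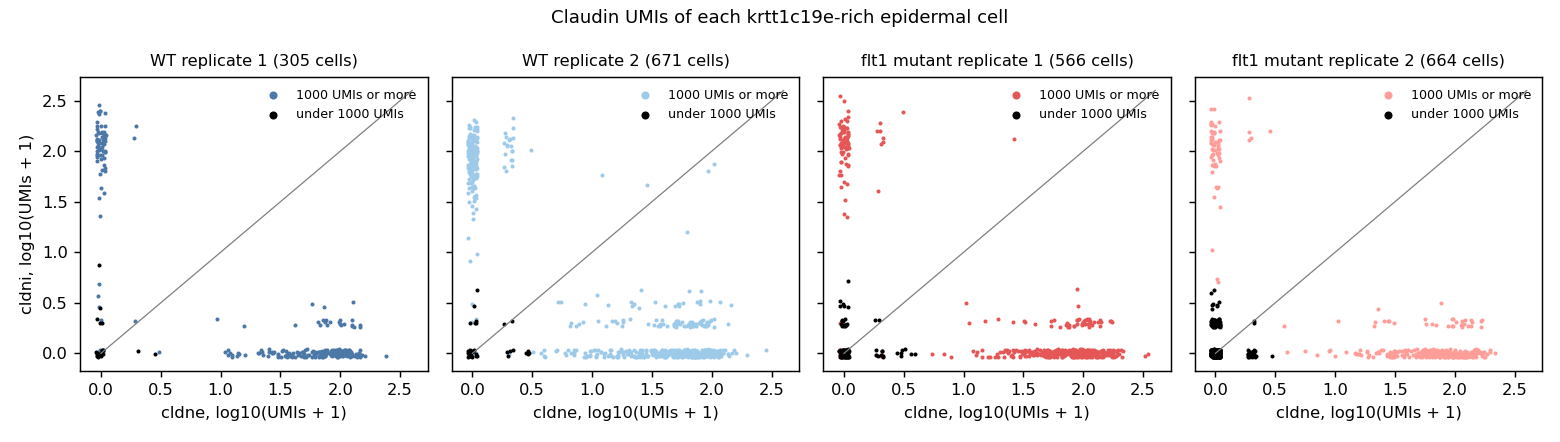
Each point is 1 krtt1c19e-rich epidermal cell, with its cldne UMIs on the x axis and its cldni UMIs on the y axis, both as log10(UMIs + 1) with a small random shift, in 1 panel per library, and the grey line marks equal counts. Black points are cells under 1000 UMIs. The cells lie along the axes in every library, with 502 above the line and 1340 below it.

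The defining basal transcripts lay almost wholly in the cldni-rich cells. Levels are given as UMIs per 1000000 UMIs of the summed cells of a library (CPM), in this order: WT replicates 1 and 2, then flt1 mutant replicates 1 and 2. tp63 was at 328, 341, 273 and 357 CPM in the cldni-rich cells and at 0.39, 2.07, 0.545 and 0.57 CPM in the cldne-rich cells. itgb4, the beta 4 chain of the hemidesmosomal integrin, was at 647 to 1072 CPM in the cldni-rich and 0.195 to 2.88 CPM in the cldne-rich cells. In every library the first side lay far above the second for both genes. col17a1a, a collagen XVII gene, ranged over 447 to 607 CPM against 0 to 2.19 CPM.

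Periderm transcripts showed the reverse. evpla, an envoplakin gene, was at 483 to 576 CPM in the cldne-rich cells and 0.755 to 3.11 CPM in the cldni-rich cells. icn2 was at 19129 to 25552 CPM against 51.3 to 303 CPM, and anxa1c, an annexin gene, at 1728 to 2328 CPM against 3.02 to 19.7 CPM. The name rested on 4 markers, and the 3 other than tp63 differed far less between the sides. krtt1c19e was at 32371 to 38662 CPM in the cldni-rich and 28614 to 34095 CPM in the cldne-rich cells, krt5 at 9803 to 13214 and 5624 to 8938 CPM, and epcam, an epithelial adhesion molecule, at 2406 to 3155 and 2362 to 2578 CPM. The members are therefore named by their rule, as krtt1c19e-rich epidermal cells.

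The rule also left basal transcripts outside. Members held 2285 of the 3701 tp63 UMIs of all retained cells, which is 61.7%, and the non-epidermal cells held 35.6%. For itgb4 the members' part was 52.2% of 10430 UMIs. The members held 89.6% of the krtt1c19e UMIs, a gene of the rule itself. Among the 510 krt17-rich cells, 478 had more cldne than cldni and 18 the reverse.

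The 25 genes that led the cldni-rich over the cldne-rich cells, among genes with at least 100 CPM in every library and ranked by the smallest ratio of any library, included several secreted and matrix proteins. rbp4, which encodes a retinol carrier, had a median of 20863 CPM in the cldni-rich and 25 CPM in the cldne-rich cells. The galectin gene lgals1l1 had 5157 against 11 CPM, and postnb, which encodes the matrix protein periostin, had 4167 CPM against at most 32.3 CPM. The type I collagen genes col1a1a, col1a1b and col1a2, the matrix gene sparc, the basement membrane collagens col4a5, col4a6 and col18a1a, and the water channel gene aqp3a were also among them. In the other direction, tcnbb had 9370.5 CPM in the cldne-rich and 55.1 CPM in the cldni-rich cells. agr1 had 2919 against 13.8 CPM, and anxa1b, another annexin gene, 1172 against 5.93 CPM.

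Set against the krt17-rich cells of the same library, the summed members were higher in the same matrix transcripts. lgals1l1, with a median of 956 CPM in the members and 17.7 CPM in the krt17-rich cells, led this list, and col1a2 had 1412 against 70.21 CPM. The cldne-rich members had medians of 11 CPM for lgals1l1 and 43.9 CPM for col1a2, below those of the krt17-rich cells. The cldni-rich members had 5157 and 7737 CPM. The krt17-rich cells were higher in the keratins krt97, krt96 and krt8, with medians of 2478 against 159 CPM for krt97. They were also higher in si:dkey-248g15.3, with 6784 against 1121 CPM. This is the contrast the rule used, so it is a description.

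Depth differed between the libraries before any comparison. The median member of WT replicate 1 held 22296 UMIs and that of WT replicate 2 held 17240.0, against 19623 in flt1 mutant replicate 1 and 5019 in flt1 mutant replicate 2. Members under 1000 UMIs made up 6.89% and 5.96% of the WT members, and 17.5% and 46.8% of the flt1 mutant members. These 471 shallow cells held 0.224% to 2.29% of the members' UMIs, so they weigh little in sums and much in counts of cells. They carried more muscle RNA than the others, with mylpfa, a fast muscle myosin light chain, at 5431 to 13970.0 CPM against 171 to 769.5 CPM in deeper members, and 321 of them had no UMI of either claudin. Just inside the keratin threshold, at 5 to 6% of UMIs, lay 301 members, of which 251 were under 1000 UMIs and 208 came from flt1 mutant replicate 2. Just outside it, at 4 to 5%, lay 748 retained cells, of which 543 came from that library. Along the other limit, 305 members held less than 2 times as many krtt1c19e as krt17 UMIs.

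Members made up 10.0% of the retained cells in both WT libraries (exact 95% intervals 8.98 to 11.1% and 9.32 to 10.8%, for counting error only). They made up 13.1% (12.1 to 14.2%) in flt1 mutant replicate 1 and 11.9% (11.1 to 12.8%) in flt1 mutant replicate 2. The mean share was 10.0% ± 0.00466 (SD, n = 2) in WT and 12.5% ± 0.851 (SD, n = 2) in flt1 mutant, a difference of 2.50 percentage points. The two-sided exact permutation p was 0.333, the smallest that 2 against 2 libraries can give. The difference was 14.9 points with a keratin threshold of 3% and 0.0786 points with one of 10%, and 2.02 points among cells of 1000 UMIs or more. Among those cells the mean share was 13.1% ± 2.94 (SD, n = 2) in WT and 15.1% ± 2.03 (SD, n = 2) in flt1 mutant. The two-sided exact permutation p was then 0.667, and the groups were not separated. Among members with 1000 UMIs or more, the cldni-rich share was 25.4% and 29.3% in WT and 18.4% in both flt1 mutant libraries, and the groups did not overlap. This share was not tested. With 2 against 2 libraries an exact permutation p cannot fall under 0.333, and the split was made after the values had been seen.

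Clustering of the 1735 members with 1000 UMIs or more gave 11 subgroups, which are numbered by size and described by their leading genes, with CPM taken over all cells of a subgroup. Subgroup 2, with 250 cells from all 4 libraries, held tp63 at 324 CPM and itgb4 at 815 CPM, and was led by ptgdsb.1, fn1b (fibronectin), kera (keratocan), lgals1l1 and type I collagens. Subgroup 8, with 82 cells, held tp63 at 302 CPM and was led by the actinodin genes and1, and2 and and3, with and1 at 5161 CPM against 11.4 CPM in the other members, together with vcanb (versican) and tnc (tenascin C). Subgroup 9, with 71 cells, was led by genes of dividing cells, mki67 at 333 CPM, top2a at 174 CPM and plk1 at 165 CPM, and held tp63 at 218 CPM as well as cldne at 1824 CPM. Subgroup 10, with 40 cells, was led by fgfbp2b at 909 CPM and col2a1a, although 45.7% of the fgfbp2b UMIs of WT replicate 2 came from 1 cell.

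Subgroups 1, 3, 5, 6 and 7 held tp63 at 1.13 CPM or less. Subgroup 1 held 527 cells, of which 512 were flt1 mutant, and made up 63.0% and 61.8% of the clustered members of the flt1 mutant libraries against 2.82% and 1.11% in WT. The clustering used genes that differed between the genotypes, so these shares are a description. Subgroup 1 was led by s100a11, at 241 CPM against 5.07 CPM in the other members, and sst2, at 79.9 against 0.48 CPM. In WT replicate 2, 96.1% of the members' s100a11 UMIs came from 1 cell, and in flt1 mutant replicate 1 94.3% came from 1 cell. Over all members s100a11 had 1836 UMIs in WT and 1667 in flt1 mutant. For sst2, 97.5% of the members' UMIs of flt1 mutant replicate 1 came from 1 cell. The lead of both genes therefore rested largely on single cells. Subgroup 3 held 239 cells, of which 211 came from WT replicate 2, and subgroup 5 held 126 cells, of which 122 came from WT replicate 1. mgst2 led subgroup 3, at 336 against 108 CPM in the other members, and si:dkeyp-51b9.3 led subgroup 5, at 69.6 against 16 CPM. In these 3 subgroups tp63 levels were 0.246 to 1.13 CPM and evpla levels 469 to 571 CPM. In subgroups 3 and 5 a cell state and a library cannot be told apart. Subgroup 6, with 89 cells from all libraries, held si:dkey-9l20.3 at 6694 CPM against 41.8 CPM in the other members, tcnbb at 52387 CPM, and the chemokine receptor gene cxcr4b and mucin gene muc13a. Subgroup 7, with 84 cells, was led by krt97 at 2743 CPM, krt96 at 366 CPM and krt8 at 2034 CPM, keratins that were also higher in the krt17-rich cells. Subgroup 4, with 219 cells and a median of 5700.0 UMIs, was led by muscle and neural genes such as myhz1.1 and elavl3, and subgroup 11, with 8 cells, by globin genes.

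**Figure D2:**
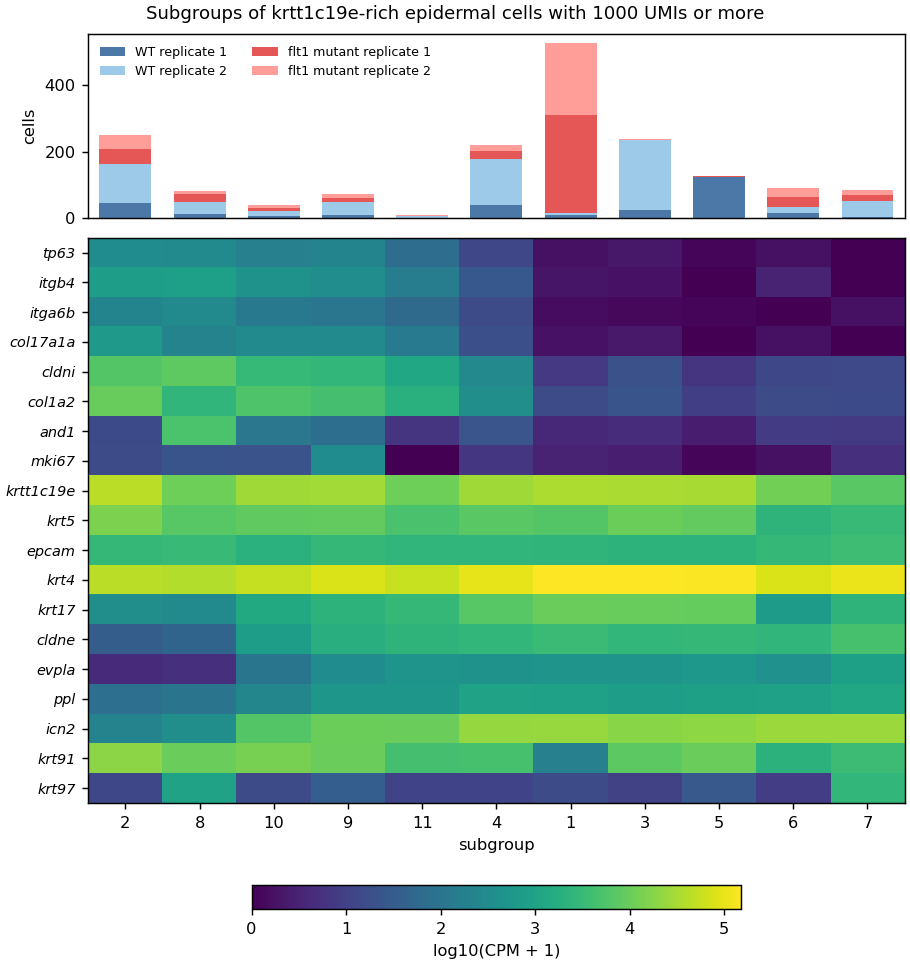
The bars give the number of cells of each subgroup by library, and the colours below give the level of each gene in that subgroup as log10(CPM + 1). Subgroups 2 and 8 hold tp63 at 324 and 302 CPM with little evpla, and subgroup 1 holds krt91 at 183 CPM.

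The difference between the flt1 mutant and WT libraries in these cells was examined on the UMI sums of each library. Of 11198 genes tested, 611 were called changed at an adjusted p under 0.05 (5.46%), 310 higher (2.77%) and 301 lower (2.69%) in flt1 mutant. The number rests on 2 libraries a side, and without WT replicate 2 it was 124. Scaling by library totals alone moved the median of all genes from -0.02 to -0.11 on the log2 scale and the split to 272 higher and 521 lower. The named genes are the 12 higher and 12 lower of smallest adjusted p, and each of these 24 stayed past the threshold in the 15 alternatives that keep the members as one group.

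The gene of smallest adjusted p was si:ch211-121a2.2, which rose from 6.01 and 7.32 CPM in WT to 228 and 234 CPM in flt1 mutant (log2 fold change 5.18, SE 0.15, adjusted p 7.01e-05, edgeR). The same pattern stood outside the members, with 4.68 and 10.1 CPM in WT against 230.3 and 247 CPM in flt1 mutant in the krt17-rich cells and 1.51 and 1.54 CPM in WT against 112 and 123 CPM in flt1 mutant in the non-epidermal cells. ablim1b, an actin-binding LIM protein gene, stood at 1.23 and 1.12 CPM in WT and at 17.8 and 17.1 CPM in flt1 mutant (log2 fold change 3.98, SE 0.21, adjusted p 0.000981). crip1, a small LIM-domain protein gene, was at 3.86 and 3.19 CPM in WT against 27.3 and 33.1 CPM in flt1 mutant (log2 fold change 3.20, SE 0.17, adjusted p 0.000981). The members of the WT libraries were low in both genes on both claudin sides.

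Some of the genes that rose have known products. ch25hl1.1, a cholesterol 25-hydroxylase gene, was at 240.3 and 223 CPM in WT against 589 and 632 CPM in flt1 mutant (log2 fold change 1.49, SE 0.09, adjusted p 0.00158). selenom, which encodes a selenoprotein of the endoplasmic reticulum, was at 87.4 and 71 CPM in WT against 257 and 273 CPM in flt1 mutant (log2 fold change 1.83, SE 0.12, adjusted p 0.00193), with log2 values of 0.18 in the cldni-rich and 1.76 in the cldne-rich cells. dhrs13l1, a short-chain dehydrogenase gene (log2 fold change 1.27, SE 0.10, adjusted p 0.00411), was at 38.3 to 41.4 CPM in the cldni-rich cells of the 4 libraries, where the genotypes lay close together. A gene annotated as c6, a component of the terminal complement pathway and 1 of 2 identifiers of that symbol, gave 2 and 1 UMIs in WT against 159 and 87 in flt1 mutant. Per UMI this was a ratio of 77.8, with an exact 95% counting interval from 26.3 to 379.6. The other c6 identifier held 82 UMIs in the WT members and 121 in the flt1 mutant members, a ratio per UMI of 1.40 (1.05 to 1.88).

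The remaining genes of this set were less well known. si:ch1073-340i21.3 rose from 37.6 and 55.1 CPM to 489 and 660.1 CPM (log2 fold change 3.70, SE 0.23, adjusted p 0.00158), and si:dkeyp-1h4.6 from 55.5 and 48.2 to 284 and 209 CPM. Both were found mainly in the cldne-rich cells, at 47 to 771 and 64.3 to 332 CPM against at most 40.3 and 2.69 CPM in the cldni-rich cells. zgc:86896 was the opposite, with 419 and 400.4 CPM in WT against 1789 and 1812 CPM in flt1 mutant in the cldni-rich cells and at most 5.13 CPM in the cldne-rich cells. The zinc-binding Yippee family gene ypel5 and uraha, an enzyme gene of urate breakdown, had log2 fold changes of 1.36 and 2.65.

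Among the genes that fell was the keratin gene krt91, from 11036 and 9706 CPM in WT to 2284 and 1934 CPM in flt1 mutant (log2 fold change -2.21, SE 0.12, adjusted p 0.000985). The levels of the claudin sides were unlike. In the cldne-rich cells krt91 was at 9284 and 7101 CPM in WT against 61.8 and 61.8 CPM in flt1 mutant, and in the cldni-rich cells at 17742 and 17559 CPM in WT against 15212 and 13615 CPM in flt1 mutant. Over summed UMIs the WT level was 128 times the flt1 mutant level in the cldne-rich cells (exact 95% counting interval 120.3 to 136.4). In the cldni-rich cells it was 1.21 times that level (1.196 to 1.226). These intervals cover counting error only and leave out the spread between libraries, which was wider. The krt17-rich cells followed the cldne-rich cells, with 6902 and 4932 CPM in WT against 48.7 and 189.7 CPM in flt1 mutant. The cldni-rich cells of all 4 libraries held at least 13615 CPM of it.

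**Figure D3:**
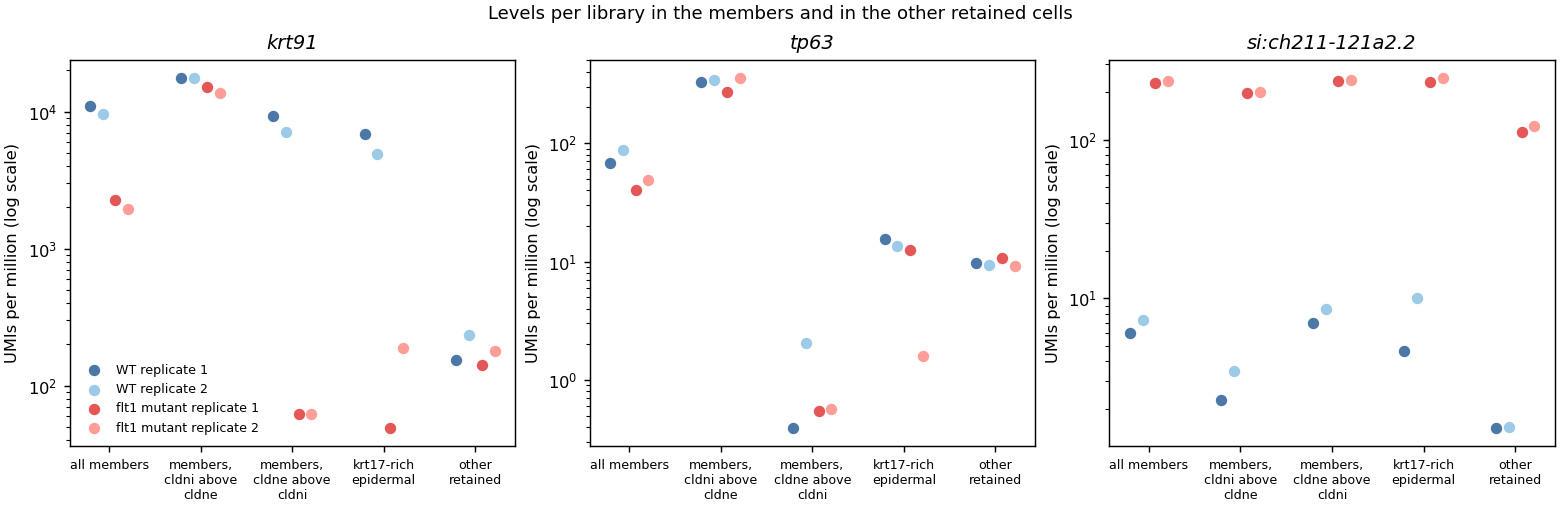
Each point is 1 library, with its CPM on a log scale for krt91, tp63 and si:ch211-121a2.2, in all members, in the cldni-rich and cldne-rich members, in krt17-rich epidermal cells and in the other retained cells. krt91 stands at 61.8 CPM in the cldne-rich cells of both flt1 mutant libraries and at 7101 CPM or more in those of the WT libraries, while the 4 libraries lie close together in the cldni-rich cells.

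Among the other genes that fell, mgst2, a microsomal glutathione S-transferase gene, was at 239 and 253 CPM in WT against 48.9 and 46.7 CPM in flt1 mutant (log2 fold change -2.27, SE 0.12, adjusted p 0.000981). gsta.2, an alpha-class glutathione S-transferase gene, was at 24.7 and 33.2 CPM in WT against 5.09 and 5.07 CPM in flt1 mutant (log2 fold change -2.44, SE 0.21, adjusted p 0.00479). mgst2 was found mainly in the cldne-rich cells while gsta.2 was found on both sides. si:ch73-329n5.1 was nearly absent from the flt1 mutant members, with 344 UMIs in the WT members and 2 in the flt1 mutant members, a ratio per UMI of 181 with an exact 95% counting interval from 49.8 to 1504. It was also near 0 in the flt1 mutant krt17-rich cells, at 0.464 and 0.399 CPM against 51 and 45.6 CPM in WT.

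The other genes that fell were distributed in different ways. Among the members, si:dkeyp-51b9.3 and si:ch211-135n15.2 lay almost wholly in the cldne-rich cells, with at most 0 and 0.345 CPM in the cldni-rich cells, and had log2 fold changes of -3.63 and -2.67. cxl34b.11, which is named as a CXC chemokine-like gene, was instead a gene of the cldni-rich cells, with 579.7 and 568 CPM in WT against 216 and 249.8 CPM in flt1 mutant there (log2 fold change -1.90, SE 0.14, adjusted p 0.00337 over all members). rpe65b, a relative of the retinoid isomerase gene of the eye, behaved likewise, with 107.2 and 88 CPM in WT against 44.6 and 42.1 CPM in flt1 mutant in the cldni-rich cells. zgc:153901, at 7.56 and 9.3 CPM in WT against 0.37 and 0.362 CPM in flt1 mutant, had the same pattern in the non-epidermal cells, with 9.09 and 7.01 CPM in WT against 0.842 and 1.14 CPM in flt1 mutant. enosf1 and zgc:153911 fell over all members, by 1.78 and 1.03 on the log2 scale, while their cldni-rich values were -0.10 and 0.11. gdpd2, a glycerophosphodiester phosphodiesterase gene, had log2 values of -1.62 in the cldni-rich and -0.83 in the cldne-rich cells.

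**Figure D4:**
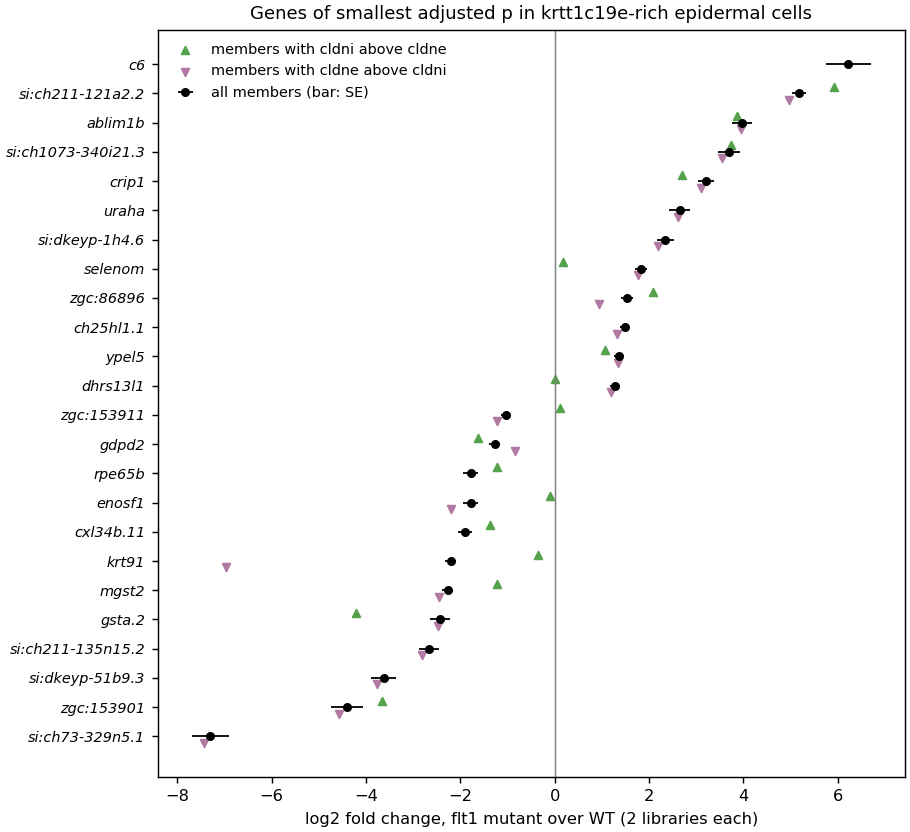
The 12 genes of smallest adjusted p in each direction are shown with their log2 fold change (flt1 mutant over WT, x axis), with black points and SE bars for all members and triangles for the cldni-rich (green) and cldne-rich (purple) members where the gene was tested there and had UMIs in both genotypes. krt91 lies at -2.21 over all members, at -0.36 in the cldni-rich and at -6.97 in the cldne-rich cells.

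Of 18 keratins tested, 3 rose and 5 fell, which is 44.4% beside 5.46% of all genes, with a median log2 fold change of 0.22 beside -0.02 over all genes tested. All 5 genes of the rule are in this list, and without them 1 of 13 rose and 5 fell, with a median of -0.47, so the sign of the median came from the genes that chose the cells. Keratin copies of like sequence may share tags, which was not tested. cyt1l and krt4, which rose with log2 fold changes of 0.65 and 0.28, are among the genes that chose the cells. krt15 was at 243 and 153 CPM in WT against 455 and 746 CPM in flt1 mutant (log2 fold change 1.69, SE 0.26, adjusted p 0.0214). krt5 was at 8847 and 9914 CPM in WT against 6312 and 6458 CPM in flt1 mutant (log2 fold change -0.47, SE 0.09, adjusted p 0.0374), and krt97, krt92 and krt1-19d fell as well. krt97 had a log2 fold change of -1.39, which was -0.46 (adjusted p 0.779) when krtt1c19e had to be at least 3 times krt17 plus 1, and it was also not past the threshold with a keratin threshold of 10% (0.155) or without the highest doublet scores (0.0524). cyt1l, krt92, krt5 and krt4 were not past it with a keratin threshold of 3% (0.0545 to 0.267), nor krt15 with the stricter krt17 limit (0.101). krt5 and krt4 were not past it with a keratin threshold of 10% (0.0503 and 0.059) or with the replicate number added as a block (0.0799 to 0.285). The highest single cell held 10.7% to 38.1% of the krt97 UMIs of a library. Without WT replicate 2, only krt91 of these 8 genes was past the threshold, and the adjusted p of the other 7 was 0.0673 to 0.301. Without WT replicate 1, cyt1l, krt97, krt5 and krt4 were not past it (0.0545 to 0.35).

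Of the 4 markers of the basal label, krt5 fell (25% beside 5.46% of all genes) and no other passed the main test. krt5 was not past the threshold with a keratin threshold of 3% (adjusted p 0.0716, edgeR) or 10% (0.0503). Nor was it with the replicate number added as a block (0.0799). tp63 was at 67.5 and 86.7 CPM in WT against 40.2 and 49 CPM in flt1 mutant over all members (log2 fold change -0.72, SE 0.16, adjusted p 0.054), and the genotypes did not overlap. Within the cldni-rich cells, where nearly all tp63 UMIs lay, it was at 328 and 341 CPM in WT against 273 and 357 CPM in flt1 mutant and the genotypes overlapped. epcam had a log2 fold change of 0.12 and krtt1c19e one of 0.20.

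Of 18 genes that anchor keratinocytes to the basement membrane, pleca fell and none rose (5.56%, near the 5.46% of all genes), with a median of -0.27. pleca, which encodes plectin, a linker of keratin filaments to hemidesmosomes, was at 845 and 826 CPM in WT against 568 and 572 CPM in flt1 mutant (log2 fold change -0.46, SE 0.09, adjusted p 0.0343). It was not past the threshold with a keratin threshold of 3% (adjusted p 0.0721, edgeR) or with the replicate number added as a block (0.0515). Its adjusted p was 0.0902 without WT replicate 1, 0.134 without WT replicate 2 and 0.102 without flt1 mutant replicate 2. itgb4 was at 135 and 164 CPM in WT against 156 and 117 CPM in flt1 mutant, and the genotypes overlapped. col17a1a was at 91.4 and 117 CPM in WT against 88.7 and 71.9 CPM in flt1 mutant. col7a1, the anchoring fibril collagen, was at 61.7 and 65.4 CPM in WT against 42.9 and 35 CPM in flt1 mutant, with an adjusted p of 0.0642. In the cldni-rich cells alone the median over this list was 0.25.

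The list of matrix genes gave different medians over all members and within the cldni-rich cells. Of 26 tested, fn1b and col1a2 fell and none rose (7.69% beside 5.46% of all genes), and the list median was -0.44 over all members and 0.06 in the cldni-rich cells. col1a2 was at 1665 and 2035 CPM in WT against 1159 and 1016 CPM in flt1 mutant over all members (log2 fold change -0.68, SE 0.14, adjusted p 0.0455), and at 8048 and 7958 CPM in WT against 7517 and 7267 CPM in flt1 mutant in the cldni-rich cells. fn1b, which encodes fibronectin, was at 179.8 and 136 CPM in WT against 66.3 and 46.7 CPM in flt1 mutant (log2 fold change -1.38, SE 0.21, adjusted p 0.0209), and in the cldni-rich cells at 879 and 541 CPM in WT against 451 and 337 CPM in flt1 mutant. The share of cldni-rich cells, given above, moved with these sums, and its part in the lower levels over all members was not tested. The actinodin genes and1 and and2, of the fin fold, had log2 fold changes of 0.05 and -0.56 and did not pass the test. fn1b and col1a2 were not past the threshold with a keratin threshold of 10% (adjusted p 0.0714 to 0.0992, edgeR). col1a2 was also not past it with one of 3% (0.0619) or with a mitochondrial limit of 10% (0.0511). Nor was col1a2 with DESeq2 size factors in edgeR (0.0527) or with the replicate number added as a block (0.0525). Without WT replicate 2, col1a2 had an adjusted p of 0.176.

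Of 26 junction genes tested, evplb, dsc2l and cldne rose and cldn1 fell (15.4% beside 5.46% of all genes), with a median of 0.13. evplb, another envoplakin gene, was at 221 and 203 CPM in WT against 330.1 and 346 CPM in flt1 mutant (log2 fold change 0.76, SE 0.09, adjusted p 0.0133), and dsc2l, a desmocollin gene, at 48.9 and 32.5 CPM in WT against 77.5 and 84.1 CPM in flt1 mutant (log2 fold change 1.09, SE 0.18, adjusted p 0.0223). cldne, which split the members, had 2924 and 2874 CPM in WT against 3480.4 and 3251 CPM in flt1 mutant within the cldne-rich cells. cldn1, a claudin found here in the cldni-rich cells, was at 105 and 96.4 CPM in WT against 58.8 and 58.2 CPM in flt1 mutant over all members (log2 fold change -0.69, SE 0.10, adjusted p 0.0201), and within the cldni-rich cells at 503 and 381 CPM in WT against 399.9 and 413 CPM in flt1 mutant, with a log2 value of -0.18 (adjusted p 0.633). Of 15 periderm markers, cyt1l, icn2, krt4 and cldne rose and none fell (26.7% beside 5.46% of all genes), with a median of 0.25. Without the genes that chose the cells, cyt1l and krt4 among them, 2 of 11 rose (18.2%) and the median was 0.08. icn2, which encodes an S100-type calcium-binding protein, was at 16272 and 14364 CPM in WT against 20224 and 21753 CPM in flt1 mutant (log2 fold change 0.54, SE 0.07, adjusted p 0.0154). With a keratin threshold of 3%, none of the 4 periderm markers passed (adjusted p 0.0545 to 0.267, edgeR). With one of 10%, krt4 and cldne did not (0.059 to 0.0646). Nor did icn2, krt4 and cldne with the replicate number added as a block (0.0502 to 0.285). Without WT replicate 2, none of these 4 junction genes and 4 periderm markers passed, with adjusted p from 0.0567 to 0.301, and without WT replicate 1 none of the 4 periderm markers passed (0.0545 to 0.35). cldne was also not past the threshold without flt1 mutant replicate 1 (0.0658).

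Of 27 epidermal transcription factors, the homeobox gene dlx4b fell, from 18.4 and 14.1 to 7.87 and 8.33 CPM (log2 fold change -0.90, SE 0.17, adjusted p 0.0345), and none rose, which is 3.70% of the list beside 5.46% of all genes. klf6a, klf3, dlx3b, tfap2a and tfap2c, the 5 of highest level, had log2 fold changes from -0.19 to 0.29. Of 31 genes of epidermal signalling, jag1b, a Notch ligand, fell (log2 fold change -0.77, SE 0.14, adjusted p 0.0289) and none rose, which is 3.23%, and the list median was -0.37. The Hairy-related repressor genes her9 and her6 led this list in level. her9 was at 1312 and 1300.1 CPM in WT against 1065 and 1181 CPM in flt1 mutant and her6 at 1103 and 1286 CPM in WT against 764 and 915 CPM in flt1 mutant, neither past the test. dlx4b was not past the threshold with a keratin threshold of 3% (adjusted p 0.0572, edgeR) or with the stricter krt17 limit (0.0664, edgeR). jag1b was not past it with a keratin threshold of 10% (0.0934, edgeR). Neither passed with DESeq2 (0.0916 for dlx4b and 0.146 for jag1b). jag1b was also not past the threshold within the cldni-rich (0.236, edgeR) or the cldne-rich cells (0.299, edgeR). dlx4b and jag1b were each not past the threshold without either WT library (0.0571 to 0.107), and jag1b also without flt1 mutant replicate 2 (0.0585).

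Signals between skin and vessels were looked at because Flt1 binds Vegfa. None of 16 vascular signalling genes tested was called (0% beside 5.46% of all genes), with a median of 0.01. The list is too short for this to show that these genes were unchanged. vegfaa was at 6.32 and 9.73 CPM in WT against 8.42 and 6.04 CPM in flt1 mutant, with 25.7 and 30.4 CPM in WT against 46.5 and 24.2 CPM in flt1 mutant in the cldni-rich cells. The apelin receptor gene aplnra was at 21.6 and 23.8 CPM in WT against 14.6 and 20 CPM in flt1 mutant, nearly all of it in the cldni-rich cells, and pdgfba at 9.56 and 7.06 CPM in WT against 7.87 and 7.25 CPM in flt1 mutant. edn1, the endothelin 1 gene, had a log2 fold change of 0.65 (SE 0.332). None of 31 cell cycle genes was called either (0% beside 5.46% of all genes), with a median of -0.17. mki67, a proliferation marker, was at 18.5 and 30 CPM in WT against 11.8 and 16.7 CPM in flt1 mutant.

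Genes of wounding and defence moved in both directions, with 22.9% called beside 5.46% of all genes. Of 35 tested, s100v2, tnfb, anxa1b and nfkbiab rose and lgals1l1, lgals3b, aqp3a and cxcl18b fell, with a median of 0.02. With a keratin threshold of 3%, tnfb, anxa1b, lgals3b, cxcl18b and nfkbiab were not past the threshold (adjusted p 0.052 to 0.0674, edgeR). With one of 10%, aqp3a and cxcl18b were not (0.0564 to 0.124). Nor were tnfb, cxcl18b and nfkbiab when krtt1c19e had to be at least 3 times krt17 plus 1 (0.0508 to 0.0885). s100v2, an S100 calcium-binding protein gene, was at 183 and 232 CPM in WT against 486 and 449.9 CPM in flt1 mutant (log2 fold change 1.26, SE 0.15, adjusted p 0.0125), and nfkbiab, an inhibitor of NF-kappaB, at 275 and 309 CPM in WT against 593 and 431 CPM in flt1 mutant (log2 fold change 0.90, SE 0.18, adjusted p 0.0408). tnfb, a tumour necrosis factor gene, was at 27.6 and 21.6 CPM in WT against 56.5 and 49.4 CPM in flt1 mutant over all members (log2 fold change 1.21, SE 0.15, adjusted p 0.0137). The sides were unlike, with 49.1 and 38.7 CPM in WT against 15.28 and 17 CPM in flt1 mutant in the cldni-rich cells and 22.2 and 15.9 CPM in WT against 63.9 and 55.4 CPM in flt1 mutant in the cldne-rich cells. This difference between the sides was not tested. The galectin gene lgals1l1 was lower within the cldni-rich cells too, with 6111 and 5963 CPM in WT against 4351 and 3954 CPM in flt1 mutant. The chemokine gene cxcl18b had 772 and 656 CPM in WT against 560.4 and 394 CPM in flt1 mutant there, but was not past the threshold within either side. Nor was aqp3a past it within either side (adjusted p 0.599 in the cldne-rich cells, edgeR). Without WT replicate 2 only s100v2 of the 8 was past the threshold (0.0523 to 0.122 for the others). anxa1b, cxcl18b and nfkbiab were not past it without WT replicate 1 (0.0505 to 0.11), nor lgals3b without flt1 mutant replicate 2 (0.0685).

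Stress genes, which dissociation can raise, were looked at for that reason. Of 31 immediate early and heat shock genes, hsp70l, fosb and ier2a rose and hsp70.1 fell (12.9% beside 5.46% of all genes), with a median of 0.05. hsp70l was at 16 and 26.8 CPM in WT against 84.5 and 65.2 CPM in flt1 mutant (log2 fold change 1.87, SE 0.26, adjusted p 0.0179) and hsp70.1 at 36.4 and 39.9 CPM in WT against 19.6 and 21.6 CPM in flt1 mutant (log2 fold change -0.81, SE 0.12, adjusted p 0.0208). The highest of the list, hspa8, had a log2 fold change of 0.05. fosb and ier2a were not past the threshold with a keratin threshold of 3% (adjusted p 0.0709 to 0.126, edgeR) or with library totals alone (0.0527 to 0.0559). ier2a was also not past it with the stricter krt17 limit (0.0662) or with the replicate number added as a block (0.0588). Without WT replicate 2 only hsp70l of the 4 was past the threshold (0.0952 to 0.125 for the others). fosb and ier2a were not past it without WT replicate 1 (0.107 to 0.14) or flt1 mutant replicate 2 (0.079 to 0.0947), nor ier2a without flt1 mutant replicate 1 (0.0736).

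Markers of other cell types were present in the sums. Muscle markers summed to 2922 and 11240.0 CPM in the WT members and to 5837 and 10432 CPM in the flt1 mutant members, and erythroid markers to 933 and 3414 CPM and to 1783 and 1459.5 CPM. Endothelial markers summed to 1.94 to 4.11 CPM. The markers tested were 7 of ionocytes, 6 of fibroblasts, 14 of muscle, 11 erythroid, 9 neural, 2 of leukocytes, 1 endothelial and 6 of pigment cells. None of these was called (0% beside 5.46% of all genes). Of 5 secretory cell markers, only agr2 was called (20% beside 5.46% of all genes). agr2 rose from 5.86 and 5.85 to 13.2 and 33.5 CPM (log2 fold change 2.04, SE 0.41, adjusted p 0.0401, edgeR). In flt1 mutant replicate 2, 44.4% of its UMIs lay in 1 cell. agr2 was not past the threshold without the highest doublet scores (adjusted p 0.0834, edgeR). Nor was it without WT replicate 1 or without WT replicate 2. The part of these cell types in the results was not tested.

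Whether the genotype effect in the members differed from that in other cells was tested as a difference of effects. Against the krt17-rich cells, 0 of 9962 genes were called by edgeR (0%). An unadjusted p under 0.05 was found for 529, close to the number expected without any difference. DESeq2, which gave an adjusted p to only 2623 of these genes, called 4. krt91, singled out after its values were seen, had a difference of 3.47 on the log2 scale (SE 0.59, adjusted p 0.578), with the larger fall in the krt17-rich cells. It passed the threshold with a keratin threshold of 10% and when krtt1c19e had to be at least 3 times krt17 plus 1. It also passed without a count filter and with the replicate number added as a block. Leaving out a flt1 mutant library changed this call, and 31 genes were then called without replicate 1 and 2 genes without replicate 2.

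Against the non-epidermal cells, which also held 2496 cells with more cldni than cldne UMIs, 13 of 16959 genes were called (0.0767%). The effect in the members lay above that in the other cells for 7 genes (0.0413%) and below it for 6 (0.0354%). ablim1b, described above, had the smallest adjusted p together with crip1, with differences of 3.36 and 2.76 on the log2 scale (adjusted p 0.00318 for both). In the non-epidermal cells ablim1b was at 14.1 and 11.3 CPM in WT against 19.9 and 18.8 CPM in flt1 mutant and crip1 at 79.6 and 73 CPM in WT against 90.9 and 120.2 CPM in flt1 mutant. plekhf1, which encodes an endosomal PH and FYVE domain protein, was at 213 and 199.8 CPM in WT against 379.7 and 367 CPM in flt1 mutant in the members and 8.1 and 8.77 CPM in WT against 5.46 and 4.83 CPM in flt1 mutant in the non-epidermal cells. On the lower side, ociad2 was at 12 and 17.5 CPM in WT against 2.59 and 3.74 CPM in flt1 mutant in the members and 27.1 and 23.5 CPM in WT against 28.3 and 30.2 CPM in flt1 mutant in the others. spon1b, an F-spondin gene, was at 11.9 and 11 CPM in WT against 3.33 and 3.26 CPM in flt1 mutant in the members, and in the non-epidermal cells at 18.9 and 20.7 CPM in WT against 23.2 and 22.2 CPM in flt1 mutant. For otos and prss59.1 the genotypes stood further apart in the non-epidermal cells, with otos at 20.9 and 8.96 CPM in WT against 1.5 and 2.93 CPM in flt1 mutant there and 2.47 and 1.89 CPM in WT against 2.5 and 3.74 CPM in flt1 mutant in the members. The number of calls was 80 without WT replicate 1, 95 without WT replicate 2 and 25 without flt1 mutant replicate 2. Of the 13 genes, however, 7 were not past the threshold without flt1 mutant replicate 1 (si:dkey-9l20.3, noxo1a, ociad2, plekhf1, gsta.2, spon1b and ccdc3b, 0.0773 to 0.138). Without flt1 mutant replicate 2, 6 were not (si:dkey-9l20.3, plekhf1, cyp46a1.2, gsta.2, spon1b and ccdc3b, 0.0502 to 0.132), and without WT replicate 1, cyp46a1.2 and gsta.2 were not (0.0511 to 0.0744).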

How the data were processed

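Trunk cells of 2 WT and 2 flt1ka604 mutant libraries were profiled by droplet single-cell RNA sequencing with 3' tags. The deposited matrices hold raw UMI counts per gene and cell, which the authors made with Cell Ranger (6.1.1, per the labels' processing notes) on GRCz11, with no normalization. The 4 libraries held 48823693, 85429263, 63602325 and 58924630 UMIs in 4942, 10506, 7930 and 9108 barcodes, of at least 500 UMIs each.

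Cells with 201 to 3999 detected genes and under 5% mitochondrial UMIs were retained, and the mitochondrial limit left out 34.6% to 43.6% of a library's barcodes. No doublets were removed. Doublet scores (Scrublet in scanpy 1.11.5) served only in an alternative, which left out the highest 5% of each library. The members and the gene lists were chosen with earlier results of these data known. UMIs were summed per library and cell class, and the sums were tested with edgeR 4.0.16 (R 4.3.3; quasi-likelihood F test, two-sided, TMM scaling, filterByExpr, Benjamini-Hochberg adjustment over all genes tested, threshold 0.05). CPM are plain UMIs per 1000000 UMIs of the summed class, while log2 fold changes come from the TMM-scaled fit. Differences of effect used 8 sums with terms for library and class and their interaction with genotype. The share of members was compared with an exact permutation test.

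Subgroups were Leiden clusters (resolution 0.4, 30 components, 2000 variable genes). Intervals are exact at 95% and cover counting error only, not the spread between libraries. The fits were tested on simulated data. Genes named are the 12 of smallest adjusted p in each direction whose libraries do not overlap, and 6 in each direction for each difference of effect. The called and the 6 highest members of each list were also candidates. So were up to 25 genes by lowest library ratio between classes, and up to 8 for each subgroup. cyp46a1.2, and krt91 in the test against krt17-rich cells, were chosen after their values were seen. Alternatives changed the keratin, krt17, UMI, mitochondrial and doublet limits, the scaling, the count filter and the test (DESeq2 1.42.0), added the replicate number as a block, and left out each library. The split by claudin was added after seeing the data.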

Additional observations from a re-analysis of the deposited data

Results flagged for a closer look

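For 13 genes the genotype effect in the krtt1c19e-rich epidermal cells differed from that in the non-epidermal cells by a test of the difference (edgeR, 13 of 16959 genes). The values below are the members' log2 fold change minus that of the non-epidermal cells. It was above 0 for cyp46a1.2 (4.10), ablim1b (3.36), otos (3.26), crip1 (2.76), noxo1a (2.56), si:dkey-9l20.3 (2.01) and plekhf1 (1.67). It was below 0 for prss59.1 (-2.75), ccdc3b (-2.46), ociad2 (-2.36), CABZ01085139.1 (-2.17), gsta.2 (-1.92) and spon1b (-1.88). Adjusted p ranged from 0.00318 to 0.0434. noxo1a was at 6.32 and 7.32 CPM in WT against 42.4 and 19.6 CPM in flt1 mutant in the members, and si:dkey-9l20.3, which led subgroup 6, at 256 and 167 CPM in WT against 364 and 403 CPM in flt1 mutant. cyp46a1.2 was low in the members, at 0.308 and 0.258 CPM in WT against 2.78 and 3.5 CPM in flt1 mutant, and ccdc3b, at 7.86 and 7.4 CPM in WT against 1.3 and 1.33 CPM in flt1 mutant, was found in the cldni-rich cells. For CABZ01085139.1 the effects were of opposite sign, with 38.9 and 30.9 CPM in WT against 15.1 and 14.7 CPM in flt1 mutant in the members and 11.3 and 8.94 CPM in WT against 20.9 and 20.7 CPM in flt1 mutant in the others. gsta.2 was at 2.58 and 3.72 CPM in WT against 2.03 and 2.52 CPM in flt1 mutant in the non-epidermal cells. prss59.1 was at 0.405 and 0.189 CPM in WT against 2.31 and 2.83 CPM in flt1 mutant there and at 29.1 and 16.8 CPM in WT against 29.5 and 26.1 CPM in flt1 mutant in the members.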

How the results depend on the processing

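The 24 genes named by smallest adjusted p kept direction and threshold under all 15 alternatives set out first. The 611 calls of the genotype test became 325 with a keratin threshold of 3%, 1622 without a count filter, 124 to 719 when 1 library was left out, 545 with DESeq2, and 86 in the cldni-rich and 523 in the cldne-rich cells. Leaving out a library leaves a genotype with 1, which is assumed to vary like the others. Of 54 called genes followed, 27 were lost without WT replicate 2, 16 with the 3% threshold, 9 with 10% and 7 with krtt1c19e at least 3 times krt17 plus 1. In the cldni-rich cells the log2 fold change turned sign for dhrs13l1 (-0.000248), zgc:153911 (0.11), tnfb (-1.49), krt92 (0.47), krt4 (-0.11), cldni (0.11), krtt1c19e (-0.0691) and sparc (0.0257), and the difference from non-epidermal cells for prss59.1 (5.61) and plekhf1 (-0.40). In the cldne-rich cells it turned for col1a2 (0.22), sparc (0.0744) and the difference of krt91 from krt17-rich cells (-1.30). In the genotype test aqp3a, jag1b, cxcl18b, krt97, krt4, cldne and col1a2 were past the threshold on neither claudin side.

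Against the krt17-rich cells, the 0 calls became 9 with a keratin threshold of 10%, 25 with krtt1c19e at least 3 times krt17 plus 1, 1 without the highest doublet scores, 1 in the cldne-rich cells, 4 with DESeq2, 152 without a count filter and 0 to 31 with 1 library left out. Against the non-epidermal cells, the 13 calls became 5 with the 3% threshold, 23 with 10%, 29 with the stricter krt17 limit, 36 at 1000 UMIs or more, 25 with a mitochondrial limit of 10%, 91 without the highest doublet scores, 119 in the cldni-rich and 21 in the cldne-rich cells, 40 with DESeq2, 452 without a count filter and 16 to 95 with 1 library left out. Of the 13 genes, 9 were lost with the 3% threshold, among them si:dkey-9l20.3 at 0.32 on the log2 scale. The cause of these changes was not tested, beyond the genes and libraries each setting leaves out. DESeq2 gave an adjusted p to 2623 of 9962 genes against the krt17-rich cells and to 8739 of 16959 against the non-epidermal cells. Its counts of calls therefore cover fewer genes than those of edgeR. The difference in share was 14.9 points with the 3% threshold, 0.0786 with 10%, 6.68 as a share of epidermal cells, and 1.89 to 3.10 with 1 library left out. The replicate number as a block gave 778, 12 and 131 calls for the 3 tests. Same-numbered libraries deviated together only weakly (correlation across genes 0.0839, 2 pairs). No label says whether they were handled as pairs, and this correlation cannot decide it. Depth limits the counts of cells in flt1 mutant replicate 2, where 46.8% of members held under 1000 UMIs.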
